A study of Mus musculus with 12 samples.

Results

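The genes described here encode integrins and the proteins that join them to the actin cytoskeleton at focal adhesions. They are 37 genes taken by symbol, 17 integrin subunits and 20 cytoplasmic adhesion proteins, out of 52654 genes listed for all 12 libraries. The rule uses symbols and no measured value, but the list was chosen with earlier results of these data known. All 37 were found, 33 passed the low-count filter and were tested, and Itga7, Itgb7, Itgb8 and Fblim1 were too low to test.

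The cells were MC3T3-E1 subclone 14, a mouse calvaria line of preosteoblasts, grown for 7 days in osteogenic medium, with ascorbic acid at 5 µg/mL and β-glycerophosphate at 7 mM, on discs of titanium. The disc surface was either a control one or one with nanotopography, a texture on the nanometre scale. The cells were kept isolated, or after 5 days shared medium for the last 2 days with osteoclasts derived from the macrophage line RAW 264.7 with 50 ng/mL RANKL, which sat above them in inserts with 0.4 µm pores. The 4 groups are thus isolated cells on control titanium, co-culture on control titanium, isolated cells on nanotopography and co-culture on nanotopography, each with 3 libraries that the series calls biological triplicates. Every group is of 1 clonal line, and no group had RANKL or an insert without osteoclasts, so effects of the osteoclasts, of RANKL and of the insert cannot be told apart. RNA was taken from the osteoblasts in bulk, where fewer cells of a type and less RNA per cell cannot be told apart.

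Integrins are pairs of an α and a β subunit that span the cell membrane and bind matrix proteins outside the cell. Inside, talins and kindlins bind the tail of the β subunit and switch the integrin to its active state, vinculin and α-actinins tie it to actin, and the kinases FAK and Src with the scaffold paxillin pass signals on. Osteoblasts hold on to collagen, fibronectin and implant surfaces through integrins that contain the β1, β3 and β5 subunits, and adhesion is a requirement for their differentiation.

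Values are CPM, the usual depth-normalised counts, scaled by edgeR's TMM factors and given per library in order of replicate. Single libraries are named by group and replicate, with coculture and nano for co-culture and nanotopography. Fold changes are log2 values, and the SE behind each ± sign is approximate, worked out from the F statistic of edgeR's test. A gene is called where edgeR's quasi-likelihood test gave an adjusted p below 0.05 over all 13340 tested genes. Total counts ran from 5866842 to 9207831 per library. All 12 osteoblast markers (Runx2, Sp7, Alpl, Bglap and others) had counts in every library, with a summed level of 82939 to 98210 CPM in isolated cells on control titanium, 73518 to 87617 with osteoclasts on control titanium, 89087 to 92445 in isolated cells on nanotopography and 46747 to 54533 in co-culture on nanotopography. Nearly all of this sum is Col1a1, Col1a2 and Ibsp, and it does not describe each marker. Runx2 averaged 335 CPM in isolated cells and 340.1 CPM in co-culture on nanotopography. Of the 12 markers, 0 were called higher and 8 lower with co-culture on nanotopography, beside 28.7% and 30.4% of all tested genes. With the GC adjustment described below, 2 were higher and 5 lower, beside 18.0% and 21.4%. With co-culture on control titanium 0 were higher and 6 lower, beside 10.9% and 8.72%. The ribosomal RNA genes of the mitochondrion took 6.70% to 9.80%, 6.15% to 6.73%, 4.52% to 6.35% and 8.66% to 15.8% of counts, in the order of groups given for the summed level.

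A trend with base composition runs through every comparison with nanotopography. Among all tested genes whose longest transcript has under 45% G and C bases, the median log2 fold change with co-culture on nanotopography was 0.70, and among those with 55% or more it was -0.90. For co-culture on control titanium these medians stood at -0.15 and 0.00. The tested members span this range, from 40.7% for Lims1 to 59.9% for Bcar1. Fold changes are therefore also given GC-adjusted, from a fit with a per-gene offset that takes out how each library varies with the GC content and length of transcripts. Whether the trend comes from the cells or from the libraries was not tested.

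The promoters of 3 cytoplasmic members are shown because these genes were called higher with co-culture on control titanium in both fits described below and hold a motif of a factor that links adhesion or stress to transcription. RefSeq gives a start site in GRCm38.p6, the mm10 assembly, for 30 of the 37 members, and the 250 bases before the first listed start were searched on both strands. A CArG box, the site of serum response factor, was found in 2 of the 30, Vcl and Fermt2, and in 1.47% of all 32851 promoters of that length. The AP-1 motif TGANTCA was found in 3 members (Zyx, Actn4 and Fblim1) and in 6.75% of all promoters. Capitals mark the CArG box in Vcl, 227 to 218 bases before the start, and in Fermt2, 204 to 195 bases before it, and the AP-1 motif in Zyx, 121 to 115 bases before it. These starts are RefSeq's. In GENCODE M21 the Zyx gene begins earlier, at chr6:42349630, so the marked motif and most of the stretch shown lie inside the gene as annotated there. The Fermt2 stretch also reaches into its GENCODE gene, which begins at chr14:45530118, but its CArG box lies before that start. A match is a description of the sequence and does not show that a factor binds there.

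Vcl (chr14:20929148-20929397, + strand): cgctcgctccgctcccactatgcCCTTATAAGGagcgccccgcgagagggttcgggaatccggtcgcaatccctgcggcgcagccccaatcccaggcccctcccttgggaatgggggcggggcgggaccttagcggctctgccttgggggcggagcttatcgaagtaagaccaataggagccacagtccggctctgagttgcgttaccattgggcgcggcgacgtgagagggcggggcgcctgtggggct
Fermt2 (chr14:45530066-45530315, - strand): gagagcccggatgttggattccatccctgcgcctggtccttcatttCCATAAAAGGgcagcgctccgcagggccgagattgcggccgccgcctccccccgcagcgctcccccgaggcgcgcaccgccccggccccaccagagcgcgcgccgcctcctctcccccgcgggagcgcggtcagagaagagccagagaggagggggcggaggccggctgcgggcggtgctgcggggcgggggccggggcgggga
Zyx (chr6:42349578-42349827, + strand): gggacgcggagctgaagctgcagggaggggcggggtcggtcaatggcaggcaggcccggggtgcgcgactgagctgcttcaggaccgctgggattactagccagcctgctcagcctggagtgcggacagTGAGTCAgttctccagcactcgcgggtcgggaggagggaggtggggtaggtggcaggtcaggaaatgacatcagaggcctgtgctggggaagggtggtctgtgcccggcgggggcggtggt

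The motifs GGAATG (bound by TEAD factors), GGGCGG (SP1) and TGTGGT (RUNX factors) were found in 5, 16 and 3 of the 30 members, and in 12.6%, 32.7% and 14.0% of all promoters.

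Levels per length are RPKM, CPM per kilobase of the union of a gene's exons. This union is longer than the longest transcript by unlike amounts, as for Itgav (10744 against 7054 bases) and Itga11 (5131 against 4969). The order of genes close in RPKM may thus depend on the length used. By this measure, Itgb1 was the highest integrin subunit gene in all 4 groups. It had 219 ± 16.0 RPKM (mean ± SD, n = 3 libraries, here and for the RPKM values below) in isolated cells on control titanium, followed among the β subunits by Itgb5 at 32.2 ± 2.12 and Itgb3 at 8.04 ± 1.14. These 3 did not overlap between libraries, and that order held in each group. The β1 subunit pairs with most α subunits, whereas β3 and β5 share αv as a partner. Itgb7 and Itgb8 were at 0.137 ± 0.124 and 0.0761 ± 0.0262 RPKM.

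Among the α subunits, Itga11, whose product pairs with β1 as a collagen receptor, led in isolated cells on control titanium with 31.7 ± 2.76 RPKM. Itgav (vitronectin and other RGD ligands) at 22.0 ± 2.35 and Itga10 (collagen) at 21.1 ± 0.377 came next, and their libraries overlapped. Itga5, the fibronectin receptor subunit, had 12.3 ± 0.993 RPKM and Itga3, a laminin receptor subunit, 5.32 ± 1.35. A wide step separated these 5 from Itga9, Itga8, Itga1 and Itga6, which lay between 0.580 ± 0.105 and 0.950 ± 0.137 RPKM, with the libraries of Itga8, Itga1 and Itga6 overlapping. In co-culture on control titanium Itga11 was at 45.9 ± 2.13 RPKM, apart from Itgav at 21.3 ± 0.991, while in co-culture on nanotopography Itga11 at 31.8 ± 4.81 and Itgav at 27.9 ± 1.80 overlapped. The cytoplasmic genes were led in isolated cells on control titanium by Actn1 (65.0 ± 8.59 RPKM), Fermt2 (58.2 ± 1.89), Vcl (57.1 ± 6.25) and Actn4 (55.3 ± 4.66), with each overlapping the next, and ended with Pxn (2.50 ± 0.111), Tes (1.11 ± 0.387) and Fblim1 (0.131 ± 0.0827).

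**Figure D1:**
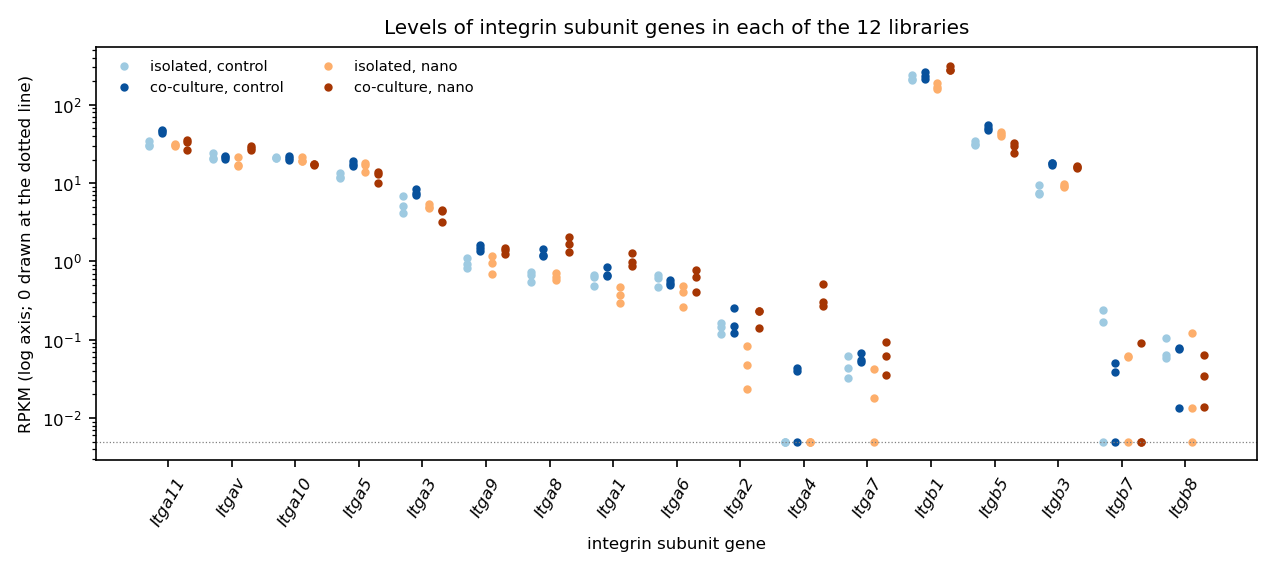
Level of the 17 integrin subunit genes in RPKM on a log axis, 1 point per library, 3 libraries in each of 4 groups, α subunits on the left and β subunits on the right. Itgb1 lies highest throughout, and Itga4 has no count in the 6 libraries of isolated cells.

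With osteoclasts on control titanium, 13 of the 33 tested members rose and 0 fell, led by the β3 integrin subunit. The question is what the presence of osteoclasts does to the cells on an unmodified surface. Of all tested genes, 19.7% were called, 10.9% higher and 8.72% lower. Of the 14 tested integrin subunits 7 rose, and of the 19 cytoplasmic genes 6. The median log2 fold change was 0.24 over the 33 members and -0.02 over all tested genes. The same 13 were called when GC-adjusted, with 3 more (Lims1, Bcar1 and Lpp) and 0 lower, where 15.0% of all genes were higher and 11.9% lower. In 17 of the 33 members the 3 co-culture libraries all lay above the 3 isolated ones and in 1 (Ptk2) all below; over all tested genes 36.1% did not overlap, 18.8% above and 17.3% below.

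The β3 gene had the largest called rise. Itgb3 (ENSMUSG00000020689.4, chr11:104608000-104670476, mm10 with GENCODE M21) had 43.3, 43.7 and 55.2 CPM in isolated cells and 106, 101 and 107 in co-culture on control titanium (log2 fold change 1.15 ± 0.11, edgeR adjusted p = 1.34e-06). On nanotopography Itgb3 had 54.3, 57.4 and 52.8 CPM in isolated cells and 93.3, 96.6 and 96.1 in co-culture. All 6 co-culture libraries lay above all 6 isolated ones. The product pairs with αv as the vitronectin receptor, which osteoclasts also carry.

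Itgb5, whose product also pairs with αv, had 109, 111 and 123 CPM in isolated cells and 169, 178 and 194 in co-culture on control titanium (log2 fold change 0.65 ± 0.11, edgeR adjusted p = 6.47e-04). On nanotopography Itgb5 had 153, 141 and 158 CPM in isolated cells and 86.2, 115 and 105 in co-culture. Its highest 3 libraries were those of co-culture on control titanium. The α subunit gene Itgav had 264, 228 and 216 CPM in isolated cells and 236, 217 and 235 in co-culture on control titanium (log2 fold change -0.04 ± 0.12, edgeR adjusted p = 0.834). On nanotopography Itgav had 178, 231 and 181 CPM in isolated cells and 319, 281 and 298 in co-culture. The groups on control titanium overlapped, and the gene was not called there.

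Itgb1, the most abundant subunit gene, had 969, 872 and 845 CPM in isolated cells and 1058, 963 and 884 in co-culture on control titanium (log2 fold change 0.11 ± 0.11, edgeR adjusted p = 0.480). On nanotopography Itgb1 had 657, 771 and 686 CPM in isolated cells and 1287, 1133 and 1133 in co-culture. The groups on control titanium overlapped for this gene as well, and the highest 3 libraries were those of co-culture on nanotopography.

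Of the α subunits, 5 rose on control titanium. Itga8 (ENSMUSG00000026768.10, chr2:12106632-12301922), whose product with β1 binds nephronectin, had 5.47, 5.00 and 4.03 CPM in isolated cells and 10.5, 8.79 and 8.72 in co-culture on control titanium (log2 fold change 0.94 ± 0.21, edgeR adjusted p = 0.00472). On nanotopography Itga8 had 4.71, 5.28 and 4.24 CPM in isolated cells and 15.3, 9.65 and 12.3 in co-culture. Again all 6 co-culture libraries were above all 6 isolated ones, and the rise was the largest of the 5. Itga11 had 153, 156 and 179 CPM in isolated cells and 246, 237 and 224 in co-culture on control titanium (log2 fold change 0.54 ± 0.11, edgeR adjusted p = 0.00304). On nanotopography Itga11 had 162, 155 and 154 CPM in isolated cells and 135, 172 and 182 in co-culture. Co-culture on control titanium was thus above each of the other groups for this collagen receptor gene.

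Itga5, of the fibronectin receptor, had 57.5, 58.5 and 66.5 CPM in isolated cells and 82.6, 85.9 and 93.5 in co-culture on control titanium (log2 fold change 0.52 ± 0.13, edgeR adjusted p = 0.00992). On nanotopography Itga5 had 83.9, 68.6 and 90.0 CPM in isolated cells and 48.8, 63.6 and 68.2 in co-culture. The co-culture libraries were above the isolated ones on control titanium and below them on nanotopography. Itga3 had 28.8, 23.6 and 38.8 CPM in isolated cells and 40.7, 42.4 and 48.6 in co-culture on control titanium (log2 fold change 0.54 ± 0.16, edgeR adjusted p = 0.0283). On nanotopography Itga3 had 31.1, 27.9 and 27.2 CPM in isolated cells and 18.3, 25.3 and 25.7 in co-culture. Its highest 3 libraries were those of co-culture on control titanium.

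Itga9, a receptor subunit for tenascin-C and osteopontin, had 8.46, 6.40 and 7.05 CPM in isolated cells and 10.4, 11.4 and 12.3 in co-culture on control titanium (log2 fold change 0.63 ± 0.19, edgeR adjusted p = 0.0273). On nanotopography Itga9 had 8.91, 7.34 and 5.26 CPM in isolated cells and 9.48, 11.3 and 10.8 in co-culture. All 6 co-culture libraries lay above all 6 isolated ones.

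For 3 α subunits the call depended on single libraries. The log2 fold change of Itga3 was 0.51 (edgeR adjusted p = 0.0925) without isolated control replicate 1, 0.38 (edgeR adjusted p = 0.165) without isolated control replicate 2, 0.58 (edgeR adjusted p = 0.0594) without coculture control replicate 2 and 0.48 (edgeR adjusted p = 0.0891) without coculture control replicate 3. That of Itga9 was 0.54 (edgeR adjusted p = 0.135) without isolated control replicate 2, 0.64 (edgeR adjusted p = 0.0669) without coculture control replicate 2 and 0.59 (edgeR adjusted p = 0.0715) without coculture control replicate 3. That of Itga5 was 0.50 (edgeR adjusted p = 0.0527) without isolated control replicate 2. The other 10 rises were called whichever library was left out.

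The remaining α subunits were not called on control titanium. Itga1, a collagen receptor subunit, had 12.6, 8.96 and 11.8 CPM in isolated cells and 15.6, 12.1 and 12.6 in co-culture on control titanium (log2 fold change 0.29 ± 0.20, edgeR adjusted p = 0.315). On nanotopography Itga1 had 5.55, 8.66 and 6.96 CPM in isolated cells and 23.9, 16.4 and 18.1 in co-culture. The groups overlapped on control titanium, and co-culture on nanotopography was above the other 3 groups. Itga2, of the same type, had 1.17, 1.05 and 0.839 CPM in isolated cells and 0.863, 1.81 and 1.05 in co-culture on control titanium (log2 fold change 0.24 ± 0.43, edgeR adjusted p = 0.735). On nanotopography Itga2 had 0.168, 0.587 and 0.340 CPM in isolated cells and 0.991, 1.65 and 1.67 in co-culture. These values rest on 23, 28, 7 and 31 counts over isolated cells and co-culture on control titanium and on nanotopography. Only co-culture libraries, with 13, 13 and 11 counts, carried Itga2 past the low-count filter. Itga6 (laminin) stood at -0.10 ± 0.27 and Itga10 at -0.00 ± 0.09, with edgeR adjusted p = 0.820 and 0.980.

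Among the proteins that activate integrins, Fermt2 and Tln2 rose on control titanium and Tln1 was not called. Fermt2 (ENSMUSG00000037712.16, chr14:45458795-45530118), which encodes kindlin-2, had 305, 291 and 310.4 CPM in isolated cells and 483, 444 and 432 in co-culture on control titanium (log2 fold change 0.58 ± 0.09, edgeR adjusted p = 3.32e-04). On nanotopography Fermt2 had 258, 287 and 269.7 CPM in isolated cells and 460.1, 416 and 455 in co-culture. All 6 co-culture libraries lay above all 6 isolated ones. Tln2, the second talin gene, had 53.6, 57.4 and 67.3 CPM in isolated cells and 87.0, 76.8 and 94.4 in co-culture on control titanium (log2 fold change 0.54 ± 0.12, edgeR adjusted p = 0.00496). On nanotopography Tln2 had 89.1, 89.1 and 80.6 CPM in isolated cells and 77.2, 98.5 and 84.5 in co-culture. The groups did not overlap on control titanium and did on nanotopography. Tln1, the main talin gene of most cells, had 415, 428 and 441 CPM in isolated cells and 451, 479 and 591 in co-culture on control titanium (log2 fold change 0.24 ± 0.12, edgeR adjusted p = 0.162). On nanotopography Tln1 had 663, 565 and 646 CPM in isolated cells and 316, 404 and 387 in co-culture. Its co-culture libraries lay above the isolated ones on control titanium, and those on nanotopography were the lowest 3 of all.

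Of the genes that tie the adhesion to actin, Vcl, Actn1 and Tns3 rose on control titanium. Vcl (ENSMUSG00000021823.10, chr14:20929398-21033676), which encodes vinculin, had 422, 458 and 523 CPM in isolated cells and 726, 688 and 702 in co-culture on control titanium (log2 fold change 0.59 ± 0.10, edgeR adjusted p = 3.90e-04). On nanotopography Vcl had 472, 486 and 499.6 CPM in isolated cells and 643, 621 and 613 in co-culture. All 6 co-culture libraries lay above all 6 isolated ones. Actn1, a crosslinker of actin filaments, had 319, 348 and 412 CPM in isolated cells and 514, 532 and 528 in co-culture on control titanium (log2 fold change 0.55 ± 0.12, edgeR adjusted p = 0.00411). On nanotopography Actn1 had 449, 413 and 469.9 CPM in isolated cells and 369.6, 502 and 435 in co-culture. Its highest 3 libraries were those of co-culture on control titanium. The tensin gene Tns3 rose by 0.41 ± 0.10 (edgeR adjusted p = 0.00956). Actn4, the second crosslinker, had 308, 344 and 365 CPM in isolated cells and 348, 376 and 411 in co-culture on control titanium (log2 fold change 0.16 ± 0.12, edgeR adjusted p = 0.390). On nanotopography Actn4 had 422, 372 and 409.6 CPM in isolated cells and 179, 256 and 235 in co-culture. It was not called on control titanium, and neither was Tns1 at 0.17 ± 0.09 (edgeR adjusted p = 0.225).

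Zyx was the only called member among the LIM-domain and actin assembly proteins. Zyx (ENSMUSG00000029860.16, chr6:42349630-42360213), which encodes zyxin, a protein recruited to adhesions and stress fibres under tension, had 47.3, 51.1 and 60.9 CPM in isolated cells and 71.4, 83.4 and 94.4 in co-culture on control titanium (log2 fold change 0.65 ± 0.14, edgeR adjusted p = 0.00403). On nanotopography Zyx had 67.9, 62.5 and 82.2 CPM in isolated cells and 37.8, 49.4 and 41.3 in co-culture. As for Itga5, co-culture was above isolated cells on control titanium and below them on nanotopography. Vasp, which speeds actin filament growth, had 48.4, 53.1 and 62.6 CPM in isolated cells and 52.8, 62.2 and 57.7 in co-culture on control titanium (log2 fold change 0.08 ± 0.14, edgeR adjusted p = 0.747). On nanotopography Vasp had 69.6, 55.5 and 66.4 CPM in isolated cells and 21.5, 31.9 and 27.2 in co-culture. The groups overlapped on control titanium, and co-culture on nanotopography was the lowest. Lpp, a relative of zyxin, had 313, 289 and 253 CPM in isolated cells and 353, 279.9 and 329.5 in co-culture on control titanium (log2 fold change 0.17 ± 0.14, edgeR adjusted p = 0.410). On nanotopography Lpp had 184, 266 and 227 CPM in isolated cells and 545, 424 and 499 in co-culture. With the GC trend removed it was called on control titanium, at 0.22 ± 0.08 (edgeR adjusted p = 0.0362). Tes stood at 0.09 ± 0.27 (edgeR adjusted p = 0.845).

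None of the 4 kinase and scaffold genes was called on control titanium without GC correction, and neither were the 3 genes of the complex of integrin-linked kinase, PINCH1 and α-parvin. Ptk2, which encodes the focal adhesion kinase FAK, had 147, 153 and 142 CPM in isolated cells and 137, 137 and 129.6 in co-culture on control titanium (log2 fold change -0.13 ± 0.09, edgeR adjusted p = 0.334). On nanotopography Ptk2 had 154, 157 and 142 CPM in isolated cells and 141, 149 and 138 in co-culture. Its co-culture libraries on control titanium were below the isolated ones. Pxn, which encodes paxillin, had 21.3, 19.5 and 20.6 CPM in isolated cells and 22.4, 24.5 and 24.2 in co-culture on control titanium (log2 fold change 0.21 ± 0.13, edgeR adjusted p = 0.294). On nanotopography Pxn had 21.4, 21.3 and 25.3 CPM in isolated cells and 11.9, 16.4 and 13.7 in co-culture. Co-culture on nanotopography was the lowest group. Src stood at 0.17 ± 0.13 (edgeR adjusted p = 0.362). The scaffold gene Bcar1 was at 0.24 ± 0.13 (edgeR adjusted p = 0.197) and was called GC-adjusted, at 0.32 ± 0.09 (edgeR adjusted p = 0.0121). Ilk stood at 0.23 ± 0.14 (edgeR adjusted p = 0.271) and Parva at -0.06 ± 0.10 (edgeR adjusted p = 0.692). Lims1, the PINCH1 gene, was at 0.21 ± 0.13 (edgeR adjusted p = 0.271) and was called GC-adjusted, at 0.35 ± 0.09 (edgeR adjusted p = 0.00474).

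**Figure D2:**
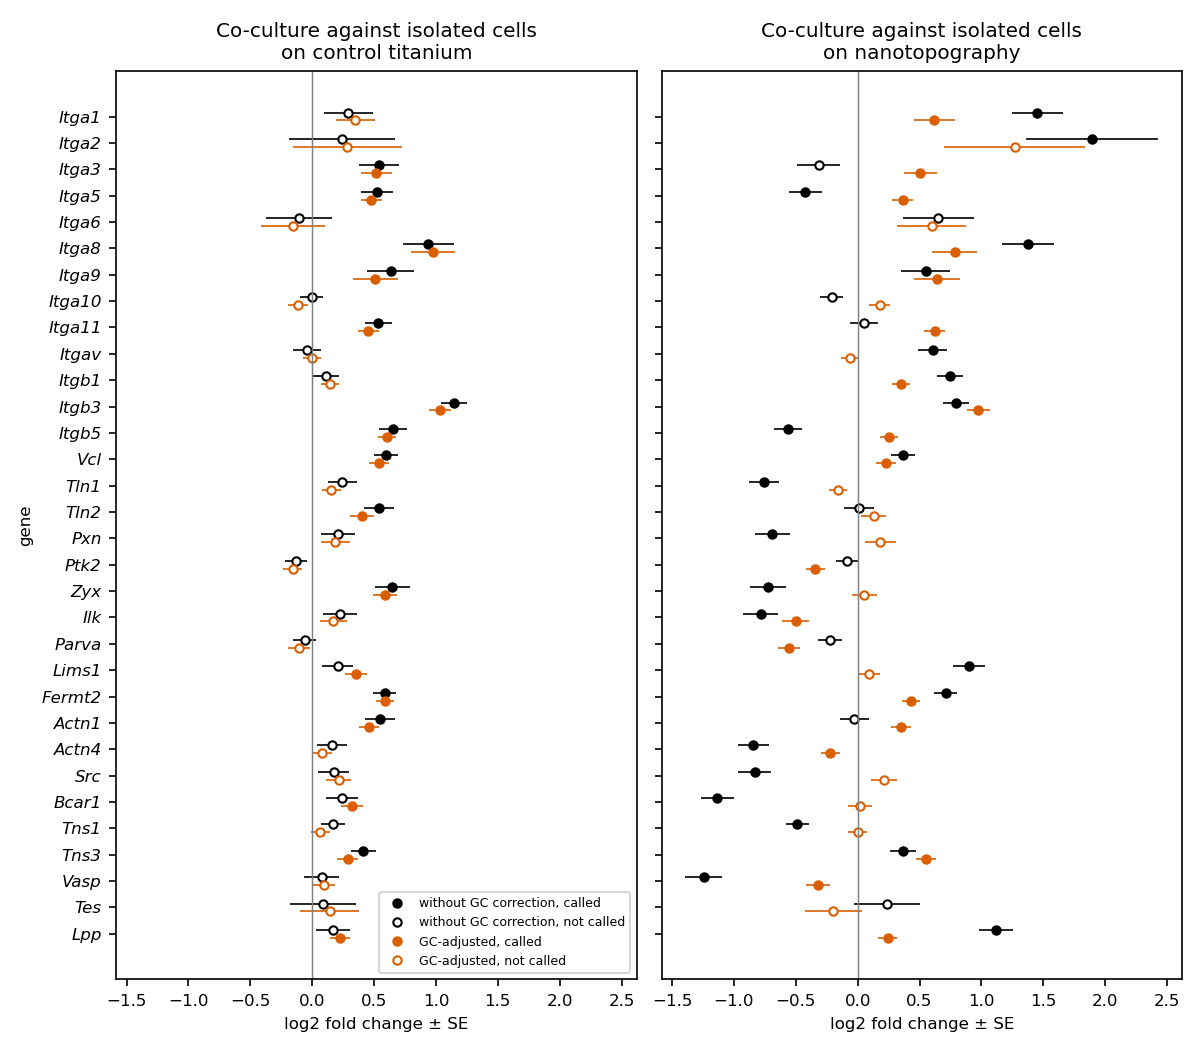
Log2 fold change ± SE of co-culture against isolated cells for 32 tested members (Itga4 left out), on control titanium (left) and on nanotopography (right), without GC correction in black and GC-adjusted in orange, filled where called. The fits give nearly the same picture on control titanium, whereas on nanotopography several members change side of 0 between them.

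With osteoclasts on nanotopography, 13 members were called higher, 11 lower and 9 neither, and which side a member took followed its GC content. Here the same question is put to cells on the modified surface. Of all tested genes 59.2% were called (28.7% higher and 30.4% lower), so the share of members called, 24 of 33, stands against a high background. The 13 higher include Itga4 and Itga2, which passed the low-count filter only through co-culture libraries. Their calls are thus not independent of the filter, and Itga4 is also among the higher members when GC-adjusted. The median over the members was 0.01 and over all tested genes -0.00. When GC-adjusted, 15 members were higher, 5 lower and 13 neither, with 39.4% of all genes called, 18.0% higher and 21.4% lower, and the members' median was 0.23 against -0.01 for all genes. The fits shared 13 calls in the same direction and gave 2 (Itga5 and Itgb5) in opposite ones. The libraries did not overlap for 27 members, 13 higher and 14 lower in co-culture, where 64.4% of all genes did not overlap, 31.4% higher and 32.9% lower.

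The 6 members that rose with co-culture on both surfaces in both fits were Itga8, Itga9, Itgb3, Vcl, Fermt2 and Tns3. The share of all tested genes that did so is not given here, so this count cannot be read as particular to the members. On nanotopography Itgb3 rose by 0.80 ± 0.11 (edgeR adjusted p = 9.43e-06), or 0.97 ± 0.09 GC-adjusted, and Itga8 by 1.37 ± 0.21 (edgeR adjusted p = 3.93e-05), or 0.79 ± 0.18. Fermt2 rose by 0.71 ± 0.09 (edgeR adjusted p = 8.45e-06), or 0.43 ± 0.07 GC-adjusted. Vcl rose by 0.36 ± 0.10 (edgeR adjusted p = 0.00369), or 0.23 ± 0.08, and Tns3 by 0.37 ± 0.10 (edgeR adjusted p = 0.00587), or 0.55 ± 0.08. Itga9 rose by 0.55 ± 0.20 (edgeR adjusted p = 0.0238), or 0.64 ± 0.19. Its call rested on 2 libraries, with 0.37 (edgeR adjusted p = 0.144) without isolated nano replicate 3 and 0.51 (edgeR adjusted p = 0.0625) without coculture nano replicate 2, and its DESeq2 adjusted p was 0.0501. The 2 members whose promoters hold a CArG box, Vcl and Fermt2, are among these 6. Their promoters were shown because of a call that also enters the choice of the 6. A role of serum response factor was not tested.

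Members with AT-rich transcripts made up most of the other rises on nanotopography. Itgb1 (44.8% GC) rose by 0.75 ± 0.11 (edgeR adjusted p = 1.77e-05), and by 0.35 ± 0.07 (edgeR adjusted p = 8.65e-04) GC-adjusted, with all 3 co-culture libraries above the other 9. Itga1 (42.8%) rose by 1.45 ± 0.21 (edgeR adjusted p = 1.90e-05), or 0.62 ± 0.17 GC-adjusted. Lpp (42.9%) rose by 1.12 ± 0.14 (edgeR adjusted p = 5.29e-06), or 0.24 ± 0.08 GC-adjusted. Both were called in either fit. Another 3 genes were called without the correction alone. Itgav (43.5%) was at 0.61 ± 0.12 (edgeR adjusted p = 2.97e-04) and GC-adjusted at -0.06 ± 0.07 (edgeR adjusted p = 0.513). Lims1 had 42.5, 53.1 and 46.0 CPM in isolated cells and 97.8, 76.0 and 91.5 in co-culture on nanotopography, with no overlap. Its log2 fold change was 0.90 ± 0.13 (edgeR adjusted p = 1.91e-05) and GC-adjusted at 0.09 ± 0.09 (edgeR adjusted p = 0.440). Itga2 was at 1.89 ± 0.54 (edgeR adjusted p = 0.00598) and GC-adjusted at 1.27 ± 0.57 (edgeR adjusted p = 0.0829).

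Members with GC-rich transcripts made up the 11 that were called lower, all of them at 51.7% GC or more. For Itga5 (57.3%) the log2 fold change was -0.42 ± 0.13 (edgeR adjusted p = 0.0109), and GC-adjusted it was 0.37 ± 0.08 (edgeR adjusted p = 0.00187), called with the opposite sign. Without the correction, this call was lost when either of 2 libraries was left out, at -0.35 (edgeR adjusted p = 0.0584) without isolated nano replicate 3 and -0.30 (edgeR adjusted p = 0.0611) without coculture nano replicate 1. For Itgb5 (57.0%) it was -0.56 ± 0.11 (edgeR adjusted p = 4.67e-04), and GC-adjusted 0.25 ± 0.08 (edgeR adjusted p = 0.0114), again called with the opposite sign. Zyx was at -0.72 ± 0.14 (edgeR adjusted p = 4.09e-04) and GC-adjusted at 0.05 ± 0.10 (edgeR adjusted p = 0.710). Bcar1 had 77.0, 60.5 and 79.6 CPM in isolated cells and 28.7, 33.6 and 36.4 in co-culture on nanotopography. Its groups lay far apart, at -1.13 ± 0.13 (edgeR adjusted p = 2.63e-06) and GC-adjusted at 0.02 ± 0.10 (edgeR adjusted p = 0.903). Src, the tyrosine kinase partner of FAK, had 44.2, 39.8 and 50.9 CPM in isolated cells and 21.2, 28.8 and 25.5 in co-culture on nanotopography. It was at -0.83 ± 0.13 (edgeR adjusted p = 4.74e-05) and GC-adjusted at 0.21 ± 0.10 (edgeR adjusted p = 0.116).

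Tln1 at -0.76 ± 0.12 (edgeR adjusted p = 5.06e-05), Pxn at -0.69 ± 0.14 (edgeR adjusted p = 5.54e-04) and Tns1 at -0.49 ± 0.10 (edgeR adjusted p = 3.55e-04) were likewise lower, with GC-adjusted values of -0.16, 0.18 and -0.00 that were not called (edgeR adjusted p = 0.102, 0.263 and 0.995).

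Ilk, Actn4 and Vasp were the 3 members that fell in both fits, a count without the share of all tested genes that did so. Ilk (ENSMUSG00000030890.16, chr7:105736592-105742925), which encodes integrin-linked kinase, had 81.1, 79.7 and 100.4 CPM in isolated cells and 95.3, 114 and 95.9 in co-culture on control titanium. On nanotopography Ilk had 120.4, 80.4 and 112 CPM in isolated cells and 57.2, 65.0 and 59.2 in co-culture (log2 fold change -0.78 ± 0.14, edgeR adjusted p = 1.76e-04). With the GC trend removed it was at -0.50 ± 0.11 (edgeR adjusted p = 0.00130). Vasp (ENSMUSG00000030403.9, chr7:19256929-19271817) was at -1.24 ± 0.15 (edgeR adjusted p = 3.03e-06) and GC-adjusted at -0.32 ± 0.09 (edgeR adjusted p = 0.0110), and Actn4 at -0.84 ± 0.12 (edgeR adjusted p = 2.55e-05) and -0.22 ± 0.08 (edgeR adjusted p = 0.0244). The 3 co-culture libraries on nanotopography lay below the other 9 libraries for all 3 genes.

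Of the 9 members not called, 5 were called once GC-adjusted. Itga3 went from -0.32 ± 0.17 (edgeR adjusted p = 0.125) to 0.51 ± 0.13 (edgeR adjusted p = 0.00520), Itga11 from 0.05 ± 0.11 (edgeR adjusted p = 0.698) to 0.62 ± 0.09 (edgeR adjusted p = 1.28e-05) and Actn1 from -0.03 ± 0.12 (edgeR adjusted p = 0.861) to 0.35 ± 0.08 (edgeR adjusted p = 0.00172). Ptk2 went from -0.08 ± 0.09 (edgeR adjusted p = 0.443) to -0.34 ± 0.08 (edgeR adjusted p = 0.00142) and Parva, the α-parvin gene, from -0.23 ± 0.10 (edgeR adjusted p = 0.0508) to -0.56 ± 0.09 (edgeR adjusted p = 7.87e-05). Itga6, Itga10, Tln2 and Tes were called in neither fit, at 0.65, -0.21, 0.01 and 0.24 without the correction (edgeR adjusted p = 0.0589, 0.0632, 0.959 and 0.450).

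**Figure D3:**
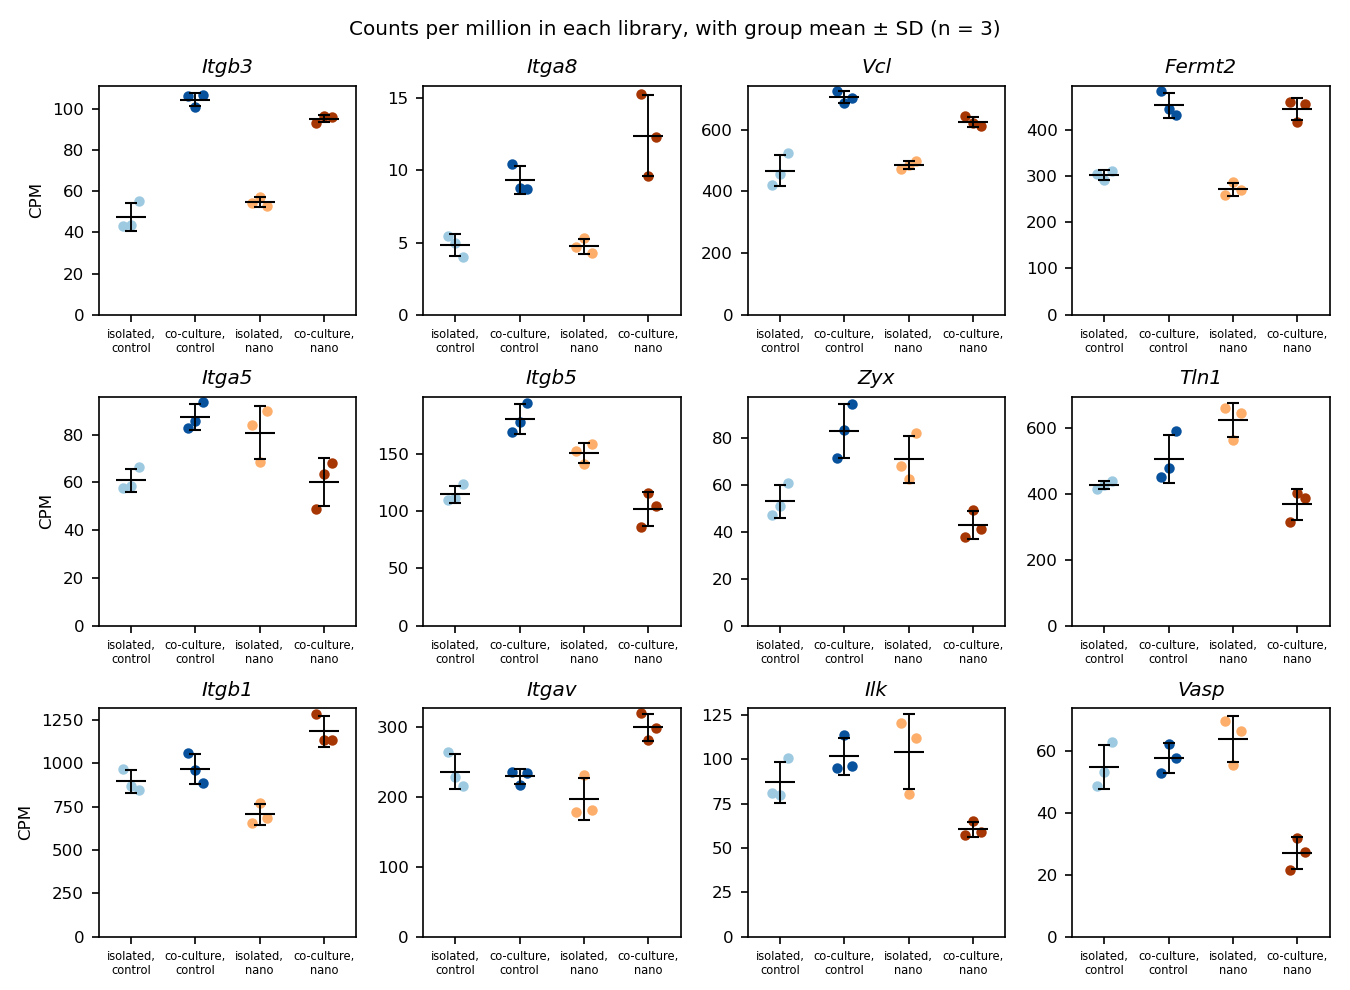
CPM of 12 members in each library (points, 3 per group) with the group mean and SD (bars), axes from 0. Itgb3, Itga8, Vcl and Fermt2 are higher in co-culture on both surfaces, Itga5, Itgb5, Zyx and Tln1 are lower in co-culture on nanotopography than in isolated cells there, and Ilk and Vasp are lowest in co-culture on nanotopography.

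The effect of co-culture differed between the surfaces for 20 members before the GC trend was removed and for 7 after it. This interaction asks whether nanotopography changes the response to osteoclasts. Without correction 47.8% of all tested genes were called (22.4% higher and 25.4% lower), and 15 members were lower and 5 higher on nanotopography relative to control titanium. GC-adjusted, 20.8% of all genes were called (7.68% higher and 13.2% lower), and 7 members were lower and 0 higher: Itgb5, Tln1, Zyx, Ilk, Actn4, Vasp and Parva. The first 6 were called lower in both fits, and the share of all tested genes called so in both is not given here. Without correction, the call of Tln2 (-0.53) was lost without coculture control replicate 3, at -0.46 (edgeR adjusted p = 0.0541). Zyx had the lowest GC-adjusted value of these apart from Ilk, -0.53 ± 0.14 (edgeR adjusted p = 0.0125) against -0.67 ± 0.15 (edgeR adjusted p = 0.00519). Itgb5 was at -0.35 ± 0.11 (edgeR adjusted p = 0.0231), Tln1 at -0.31 ± 0.11 (edgeR adjusted p = 0.0426), Vasp at -0.41 ± 0.13 (edgeR adjusted p = 0.0291), Actn4 at -0.30 ± 0.11 (edgeR adjusted p = 0.0483) and Parva at -0.45 ± 0.13 (edgeR adjusted p = 0.0179) GC-adjusted. This GC-adjusted count fell to 3 without isolated control replicate 1, isolated control replicate 2, isolated nano replicate 3 or coculture nano replicate 3, and to 4 without isolated nano replicate 1 or coculture nano replicate 1. With the replicate number as a block it was 5, and Tln1 and Actn4 were not called.

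Of the 6 members that rose on both surfaces, the interaction was not called for any. Its value for Itgb3 was -0.35 ± 0.15 (edgeR adjusted p = 0.0635) and GC-adjusted -0.06 ± 0.13 (edgeR adjusted p = 0.792), but without isolated control replicate 3 it was -0.47 (edgeR adjusted p = 0.0131). For Vcl it was -0.23 ± 0.14 (edgeR adjusted p = 0.173), for Fermt2 0.13 ± 0.13 (edgeR adjusted p = 0.446), for Itga8 0.43 ± 0.30 (edgeR adjusted p = 0.244), for Itga9 -0.08 ± 0.28 (edgeR adjusted p = 0.823) and for Tns3 -0.05 ± 0.15 (edgeR adjusted p = 0.813). A p above the threshold does not show that the responses were equal.

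With osteoclasts present, nanotopography against control titanium gave 6 members higher and 14 lower, most of which were not called GC-adjusted. The comparison shares its co-culture libraries with the preceding ones and asks how the surfaces differ under osteoclasts. Of all tested genes 42.0% were called (18.6% higher and 23.3% lower), and GC-adjusted 18.3% (7.17% higher and 11.2% lower). In either direction, the 6 of 33 members called GC-adjusted were near that share. Itga4, called higher in both fits, passed the low-count filter through co-culture on nanotopography alone. The libraries did not overlap for 53.4% of all genes, 24.9% higher and 28.4% lower. All 12 tested members with 55% GC or more were lower. Their median was -0.76, beside -0.68 for all 2671 tested genes of this class. In the 33 members the median was -0.13, and -0.03 GC-adjusted, against -0.02 and -0.02 for all genes.

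The 5 members that fell in both fits were cytoplasmic. How many of all tested genes fell in both fits is not given here. Vasp was at -1.10 ± 0.15 (edgeR adjusted p = 5.93e-05) and GC-adjusted -0.41 ± 0.09 (edgeR adjusted p = 0.00529), Bcar1 at -1.10 ± 0.13 (edgeR adjusted p = 2.82e-05) and -0.30 ± 0.10 (edgeR adjusted p = 0.0349), and Zyx at -0.95 ± 0.14 (edgeR adjusted p = 1.50e-04) and -0.34 ± 0.10 (edgeR adjusted p = 0.0258). Ilk was at -0.75 ± 0.14 (edgeR adjusted p = 8.72e-04) and GC-adjusted -0.52 ± 0.11 (edgeR adjusted p = 0.00308), with a GC content of 51.7%, and Actn4 at -0.76 ± 0.12 (edgeR adjusted p = 3.00e-04) and -0.26 ± 0.08 (edgeR adjusted p = 0.0223). The GC-adjusted count of 6 members, with Itga4 the only higher one, was 3 without coculture control replicate 3 or coculture nano replicate 1. Among the integrin subunits, Itgb5 at -0.82 ± 0.11 (edgeR adjusted p = 7.58e-05), Itga3 at -0.92 ± 0.17 (edgeR adjusted p = 6.28e-04), Itga5 at -0.54 ± 0.13 (edgeR adjusted p = 0.00459), Itga11 at -0.53 ± 0.11 (edgeR adjusted p = 0.00189) and Itga10 at -0.28 ± 0.09 (edgeR adjusted p = 0.0256) were lower. None of these 5 was called GC-adjusted, where they lay between -0.27 and 0.09.

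Src was at -0.72 ± 0.13 (edgeR adjusted p = 6.16e-04), Pxn at -0.76 ± 0.14 (edgeR adjusted p = 7.51e-04), Tln1 at -0.46 ± 0.12 (edgeR adjusted p = 0.00691) and Tns1 at -0.37 ± 0.10 (edgeR adjusted p = 0.00606), and GC-adjusted they lay between -0.09 and 0.06 and were not called. The higher members besides Itga4 were Lpp at 0.61 ± 0.14 (edgeR adjusted p = 0.00297), Itga1 at 0.52 ± 0.19 (edgeR adjusted p = 0.0347), Itgav at 0.39 ± 0.12 (edgeR adjusted p = 0.0143), Lims1 at 0.36 ± 0.13 (edgeR adjusted p = 0.0320) and Itgb1 at 0.29 ± 0.11 (edgeR adjusted p = 0.0366). None was called GC-adjusted, where they lay between -0.18 and 0.03.

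Calls for 5 of these genes were lost when single libraries were left out. For Itga1 the value was 0.45 (edgeR adjusted p = 0.122) without coculture control replicate 2, 0.47 (edgeR adjusted p = 0.101) without coculture control replicate 3, 0.34 (edgeR adjusted p = 0.198) without coculture nano replicate 1 and 0.56 (edgeR adjusted p = 0.0515) without coculture nano replicate 3. For Itga10 it was -0.28 (edgeR adjusted p = 0.0630) without coculture control replicate 2, -0.24 (edgeR adjusted p = 0.0875) without coculture control replicate 3, -0.27 (edgeR adjusted p = 0.0700) without coculture nano replicate 1 and -0.29 (edgeR adjusted p = 0.0566) without coculture nano replicate 3. For Itgav it was 0.34 (edgeR adjusted p = 0.0649) without coculture control replicate 2 and 0.34 (edgeR adjusted p = 0.0589) without coculture nano replicate 1. For Lims1 it was 0.36 (edgeR adjusted p = 0.0610) without coculture control replicate 1, 0.29 (edgeR adjusted p = 0.121) without coculture control replicate 3, 0.28 (edgeR adjusted p = 0.141) without coculture nano replicate 1 and 0.32 (edgeR adjusted p = 0.0937) without coculture nano replicate 3. For Itgb1 it was 0.29 (edgeR adjusted p = 0.0510) without isolated control replicate 2, 0.28 (edgeR adjusted p = 0.0949) without coculture control replicate 2, 0.22 (edgeR adjusted p = 0.146) without coculture control replicate 3, 0.23 (edgeR adjusted p = 0.142) without coculture nano replicate 1 and 0.31 (edgeR adjusted p = 0.0558) without coculture nano replicate 3.

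In isolated cells, nanotopography against control titanium gave 4 called members, of which the talin genes alone were called in both fits. Here the question is what the surface does to osteoblasts on their own. Tln1 rose by 0.55 ± 0.12 (edgeR adjusted p = 0.0198) and GC-adjusted by 0.37 ± 0.08 (edgeR adjusted p = 0.00876), and Tln2 by 0.54 ± 0.12 (edgeR adjusted p = 0.0211) and 0.45 ± 0.10 (edgeR adjusted p = 0.0141). Itgb5 was at 0.40 ± 0.11 (edgeR adjusted p = 0.0388) and Itgb1 at -0.35 ± 0.11 (edgeR adjusted p = 0.0489), and GC-adjusted they were at 0.17 ± 0.07 (edgeR adjusted p = 0.190) and -0.17 ± 0.07 (edgeR adjusted p = 0.191). The groups did not overlap for any of the 4. Of all tested genes 9.71% were called (4.32% higher and 5.39% lower), and GC-adjusted 5.45% (3.71% higher and 1.74% lower). In either direction, the 4 of 33 members called, and the 2 called GC-adjusted, were near these shares. The libraries did not overlap for 29.9% of all tested genes, 15.3% higher and 14.5% lower. The other 29 members were not called, Itga5 at 0.41 ± 0.13 (edgeR adjusted p = 0.0559) and Zyx at 0.42 ± 0.14 (edgeR adjusted p = 0.0661) among them.

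Whether members were called here changed when single libraries were left out. The share of all genes called in the same fits is not given here, so these counts cannot be read as particular to the members. The count of members called was 0 without isolated control replicate 1, isolated control replicate 2, isolated nano replicate 1 or isolated nano replicate 3, and 13 without isolated nano replicate 2; it was 8 without isolated control replicate 3 or coculture nano replicate 1, and 2 without coculture control replicate 2 or coculture nano replicate 3. For Tln1 the values were 0.53 (edgeR adjusted p = 0.0970) without isolated control replicate 1, 0.55 (edgeR adjusted p = 0.0709) without isolated control replicate 2, 0.50 (edgeR adjusted p = 0.0897) without isolated nano replicate 1 and 0.53 (edgeR adjusted p = 0.116) without isolated nano replicate 3. For Tln2 they were 0.48 (edgeR adjusted p = 0.108) without isolated control replicate 1, 0.52 (edgeR adjusted p = 0.0755) without isolated control replicate 2, 0.52 (edgeR adjusted p = 0.0897) without isolated nano replicate 1 and 0.60 (edgeR adjusted p = 0.0915) without isolated nano replicate 3. For Itgb5 they were 0.37 (edgeR adjusted p = 0.153) without isolated control replicate 1, 0.38 (edgeR adjusted p = 0.119) without isolated control replicate 2, 0.39 (edgeR adjusted p = 0.0608) without coculture control replicate 2, 0.39 (edgeR adjusted p = 0.138) without isolated nano replicate 1, 0.37 (edgeR adjusted p = 0.162) without isolated nano replicate 3 and 0.39 (edgeR adjusted p = 0.0627) without coculture nano replicate 3. For Itgb1 they were -0.27 (edgeR adjusted p = 0.226) without isolated control replicate 1, -0.36 (edgeR adjusted p = 0.115) without isolated control replicate 2, -0.35 (edgeR adjusted p = 0.0612) without coculture control replicate 2, -0.29 (edgeR adjusted p = 0.206) without isolated nano replicate 1, -0.32 (edgeR adjusted p = 0.193) without isolated nano replicate 3 and -0.35 (edgeR adjusted p = 0.0627) without coculture nano replicate 3. Itgb1 was also lost with RLE size factors, the replicate block or only the 2 groups compared in the fit, and Itga5 and Zyx were called with the replicate block, with DESeq2 and with no low-count filter. GC-adjusted, 1 or 2 members were called whichever library was left out.

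**Figure D4:**
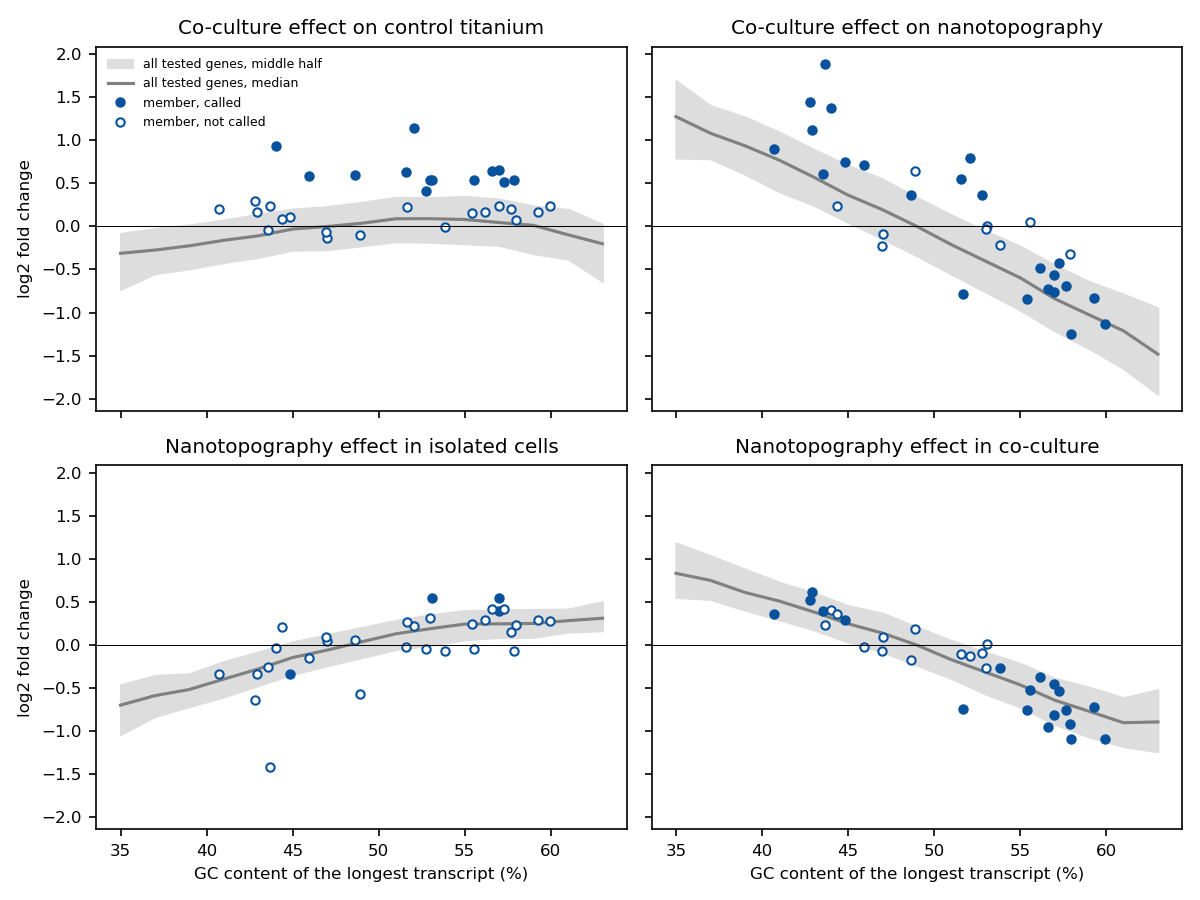
Log2 fold change without GC correction of 32 tested members (points, filled where called, Itga4 left out) against the GC content of the longest transcript, with the median of all tested genes in steps of GC content (line) and their lower to upper quartile (band). For co-culture on control titanium the line rises from -0.31 to 0.09 and falls again at high GC content, whereas with nanotopography in co-culture it falls with GC content, as the members do.

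Across the 32 members other than Itga4, Spearman's rho between GC content and log2 fold change was -0.84 for co-culture on nanotopography, -0.92 for nanotopography in co-culture, 0.68 for nanotopography in isolated cells and 0.15 for co-culture on control titanium. These points are genes measured in the same libraries, not independent replicates. With the trend removed, the values were -0.17, -0.12, 0.09 and 0.08.

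Itga4, whose product pairs with β1 or β7 as a receptor for VCAM1 and fibronectin on leukocytes, was found in co-culture alone. It had 0 counts in the 6 isolated libraries, 0, 0.558 and 0.601 CPM in co-culture on control titanium and 4.25, 3.81 and 7.29 CPM in co-culture on nanotopography. The 108 counts of the latter group were at least 31.2-fold higher than isolated cells on nanotopography against a limit of 3 counts over that group, and edgeR called the gene there (adjusted p = 2.47e-05). It passed the low-count filter through co-culture on nanotopography alone (30, 30 and 48 counts), the group in which it was then called higher. With no low-count filter, which members were called for co-culture on nanotopography did not change. The 8 counts in co-culture on control titanium were at least 2.57-fold higher and not called (edgeR adjusted p = 0.0868), though called by DESeq2 (adjusted p = 0.0366), without a low-count filter (edgeR adjusted p = 0.0234) and without coculture control replicate 1 (edgeR adjusted p = 0.0298). Between the co-cultures, the gene was 14.5-fold higher on nanotopography (edgeR adjusted p = 4.05e-04).

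More markers of macrophages and osteoclasts were found in co-culture as well. Of 22 such markers, 11 had a count in isolated cells on control titanium, 18 with osteoclasts on control titanium, 12 in isolated cells on nanotopography and 21 in co-culture on nanotopography. Their summed level ran from 189 to 195, 192 to 207, 180.4 to 205 and 200.2 to 262 CPM in that order. Ctsk and Mmp9, which the isolated cells also hold at 169 and 19.0 CPM on average on control titanium, make up most of it. Without these genes, the sum ran from 3.36 to 5.82, 3.99 to 13.2, 3.96 to 5.55 and 22.2 to 56.3 CPM. Ptprc, Cd53, Clec5a, Dock2, Tyrobp, Dcstamp and Atp6v0d2 had no count in either isolated group, Adgre1 and Itgam had counts in co-culture on nanotopography alone, and Calcr had none in any group. Itgb3 had 8.04 ± 1.14 RPKM in isolated cells on control titanium, which had no osteoclasts. That level does not show where the rise of Itgb3 in co-culture came from. Whether RNA of other cells is part of the values of Itga4 and Itgb3 was not tested.

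The subunits of leukocyte integrins and 4 of the members were near the limit of detection. Itgb2, the β chain of leukocyte integrins, had 2, 11, 5 and 37 counts over isolated cells on control titanium, co-culture on control titanium, isolated cells on nanotopography and co-culture on nanotopography, and its partner Itgam had 0, 0, 0 and 11. Itgal had 1, 7, 2 and 3 counts, Itgax 0, 3, 0 and 0, Itgae 3, 2, 0 and 1, Itgb6 3, 5, 0 and 2, and Itgad 0 throughout. Of the 4 members that were too low to test, Itga7 had 8, 11, 3 and 11 counts, Itgb7 8, 2, 2 and 2, Itgb8 18, 15, 9 and 9, and Fblim1, which encodes migfilin, 12, 30, 9 and 19. Itgb4, a laminin receptor subunit, was at -1.29 ± 0.17 (edgeR adjusted p = 7.46e-06) with co-culture on nanotopography and GC-adjusted at -0.30 ± 0.16 (edgeR adjusted p = 0.138). Between the co-cultures it was at -1.29 ± 0.17 (edgeR adjusted p = 4.51e-05) on nanotopography against control titanium, and GC-adjusted at -0.57 ± 0.15 (edgeR adjusted p = 0.0144). Itga2b, the platelet partner of β3, and the integrin-related genes Itgb1bp1 and Itgbl1 were not called in any of the 4 comparisons between groups without GC correction, with log2 values from -0.89 to 0.53. GC-adjusted, Itga2b was called with co-culture on control titanium, at -0.89 ± 0.31 (edgeR adjusted p = 0.0420), and between the co-cultures, at 1.03 ± 0.34 (edgeR adjusted p = 0.0384).

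Other genes of the pathway were taken from wider lists, also chosen with earlier results of these data known. Of 53 tested partners of integrin adhesions, such as adaptors, small GTPases and their regulators, 12 rose and 0 fell with co-culture on control titanium, where 10.9% of all tested genes rose and 8.72% fell, with a median of 0.14 against -0.02 for all tested genes. The membrane scaffold gene Cav1 was at 0.74 ± 0.13 (edgeR adjusted p = 5.26e-04), Asap1, a regulator of Arf GTPases, at 0.52 ± 0.09 (edgeR adjusted p = 7.31e-04) and the actin scaffold gene Palld at 0.49 ± 0.09 (edgeR adjusted p = 0.00163). GC-adjusted, 16 partners rose and 1 fell on control titanium, beside 15.0% and 11.9% of all tested genes. With co-culture on nanotopography 18 were higher and 21 lower, or 16 and 11 GC-adjusted. Of all tested genes 28.7% were higher and 30.4% lower there, or 18.0% and 21.4% GC-adjusted, so the GC-adjusted share of lower partners was near that of all genes. Rapgef1, which activates Rap1, was at -0.96 ± 0.11 (edgeR adjusted p = 1.78e-06) and GC-adjusted -0.38 ± 0.07 (edgeR adjusted p = 5.04e-04), and Asap1 at 0.74 ± 0.09 (edgeR adjusted p = 4.52e-06) and 0.57 ± 0.07 (edgeR adjusted p = 3.37e-06). Pdlim7 was at -1.17 ± 0.14 (edgeR adjusted p = 2.87e-06) and GC-adjusted -0.25 ± 0.13 (edgeR adjusted p = 0.134).

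Matrix and other ligands of integrins formed a second list. Of 32 tested ligand genes, 17 rose and 4 fell with co-culture on control titanium, beside 10.9% and 8.72% of all tested genes. The median was 0.38, against -0.02 for all tested genes. The fibronectin gene Fn1, ligand of α5β1 and αv integrins, was at 1.08 ± 0.11 (edgeR adjusted p = 2.72e-06), the tenascin-C gene Tnc, ligand of α9β1, at 0.73 ± 0.09 (edgeR adjusted p = 4.82e-05) and the basement membrane collagen gene Col4a2 at 0.75 ± 0.11 (edgeR adjusted p = 1.90e-04). GC-adjusted, 18 ligand genes rose and 5 fell on control titanium, beside 15.0% and 11.9% of all tested genes. On nanotopography 10 were higher and 10 lower, shares near the 28.7% and 30.4% of all tested genes. GC-adjusted, 14 were higher and 6 lower, beside 18.0% and 21.4% of all tested genes. The osteopontin gene Spp1, ligand of αvβ3, was at 1.77 ± 0.12 (edgeR adjusted p = 1.54e-08) and GC-adjusted 1.33 ± 0.09 (edgeR adjusted p = 2.37e-09). Tgfb1, which αv integrins release from its latent form, was at -1.66 ± 0.16 (edgeR adjusted p = 3.96e-07) and -1.31 ± 0.12 (edgeR adjusted p = 9.46e-08), and Edil3, another αv ligand, at 1.56 ± 0.16 (edgeR adjusted p = 5.27e-07) and 0.48 ± 0.10 (edgeR adjusted p = 6.61e-04).

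Of 17 tested genes of the contractile actin cytoskeleton, which pulls on focal adhesions, 6 rose and 0 fell with co-culture on control titanium, beside 10.9% and 8.72% of all tested genes. The median was 0.32, against -0.02 for all tested genes. The smooth muscle actin gene Acta2 was at 1.32 ± 0.16 (edgeR adjusted p = 2.31e-05), Tagln at 0.96 ± 0.14 (edgeR adjusted p = 1.09e-04) and the myosin light chain gene Myl9 at 0.84 ± 0.13 (edgeR adjusted p = 2.46e-04). GC-adjusted, 7 contractile genes rose and 1 fell on control titanium, beside 15.0% and 11.9% of all tested genes. On nanotopography 2 were higher and 8 lower, beside 28.7% and 30.4% of all tested genes. GC-adjusted, 5 were higher and 3 lower, beside 18.0% and 21.4%, so the share of lower genes was near that of all genes. Srf, which encodes the factor that binds CArG boxes, was at -0.85 ± 0.14 (edgeR adjusted p = 8.72e-05) there and GC-adjusted at 0.84 ± 0.11 (edgeR adjusted p = 5.38e-06), called with opposite signs. Tagln2 was at -0.87 ± 0.16 (edgeR adjusted p = 2.24e-04) and -0.10 ± 0.10 (edgeR adjusted p = 0.445), and Cnn2 at -0.61 ± 0.12 (edgeR adjusted p = 3.27e-04) and -0.15 ± 0.08 (edgeR adjusted p = 0.136).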

How the data were processed

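RNA sequencing libraries were made from MC3T3-E1 osteoblasts in 4 groups of 3. Per the labels' protocols and the values, the deposited files hold 1 read count per gene and library, not normalised. The genome build was mm10 and the tools were STAR 2.4, HTSeq, DESeq2, cutadapt and FastQC 0.63, per the submitters' processing notes; the annotation release and the strand setting are not given in the sources used here, so reads of a gene and an antisense or overlapping gene may be mixed. All gene identifiers in the files matched GENCODE M21, which gave symbols, coordinates and transcript lengths. Of 54275 genes in any file, 52654 are in all 12 files and were used; 10 files end within a line.

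Counts were tested with edgeR 4.0.16 (R 4.3.3; TMM scaling, filterByExpr with a minimum count of 10, quasi-likelihood F test, Benjamini-Hochberg adjustment over 13340 genes, threshold 0.05) with 4 group means fitted to all 12 libraries. The common dispersion corresponds to a biological coefficient of variation of 12.3%. RPKM was computed from CPM and the union of exons. GC-adjusted fits used loess offsets (span 0.3) on the GC content and length of the longest transcript. The calculations were tested on simulated data. Alternatives were RLE scaling, no low-count filter, DESeq2 1.42.0, a replicate block, only the 2 groups compared, GC adjustment, and each library left out; leaving out libraries in the GC-adjusted fit was added after seeing the data.

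The members, the wider gene lists and the alternatives were chosen with earlier results of these data known. All members are accounted for; values per library are given for members called with a log2 change of at least 0.5 and a mean of at least 1 CPM, and for 12 set members. Of the wider lists, the 3 called genes with the smallest p in a comparison may be named. Libraries of a group are called biological triplicates in the series, with no statement on separate cultures, so p-values measure the spread between these libraries. No libraries of a group were alike within counting error. Same-numbered libraries did not deviate together (correlations of -0.39 to 0.30 over 18 pairs), so replicate numbers were not used as pairs. Promoters were taken from RefSeq on GRCm38.p6.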

Additional observations from a re-analysis of the deposited data

Results flagged for a closer look

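The response to co-culture differed between the surfaces by an interaction term in edgeR for 20 of the 33 tested members, beside 47.8% of all tested genes. Each value is the log2 fold change of co-culture on nanotopography minus that on control titanium. It was positive, a larger rise on nanotopography, at 1.16 for Itga1, 0.65 for Itgav, 0.63 for Itgb1, 0.70 for Lims1 and 0.95 for Lpp. Among integrin subunits it was negative at -0.85 for Itga3, -0.95 for Itga5, -0.48 for Itga11 and -1.21 for Itgb5. Among cytoplasmic members it was negative at -1.003 for Tln1, -0.53 for Tln2, -0.90 for Pxn, -1.37 for Zyx, -1.01 for Ilk and -0.57 for Actn1, and at -1.004 for Actn4, -1.005 for Src, -1.37 for Bcar1, -0.66 for Tns1 and -1.32 for Vasp. The call of Tln2 was lost without coculture control replicate 3, at -0.46 (edgeR adjusted p = 0.0541).

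GC-adjusted, the interaction was called for 6 of these 20, at -0.35 for Itgb5, -0.31 for Tln1, -0.53 for Zyx, -0.67 for Ilk, -0.30 for Actn4 and -0.41 for Vasp, with edgeR adjusted p from 0.00519 to 0.0483. For the other 14 members the GC-adjusted values lay between -0.31 and 0.27. In either direction, 7 of the 33 tested members were called GC-adjusted, a share near the 20.8% of all tested genes. The adjustment changed the sign for Itga11, Itgav and Lims1. The cause of the trend with GC content was not tested.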

How the results depend on the processing

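With RLE scaling, no low-count filter, DESeq2, the replicate block or only the 2 groups compared, the counts of members called stayed within 1.5 times of those given, except for nanotopography in isolated cells, where 8 members were called with no filter and 7 with DESeq2, against 4. These counts, and those with a library left out, are given without the share of all genes called in the same fits. GC-adjusted, without and with the replicate block, the counts were 2 and 2 for nanotopography in isolated cells, 6 and 6 for nanotopography in co-culture and 7 and 5 for the interaction. The fits with the replicate block alone ended the call of Itgb1 in isolated cells (-0.34, edgeR adjusted p = 0.0554), added Itga5 and Zyx there and changed no other call of a member; 4 of the 12 libraries correlated best with another library of their own number. With both the block and GC adjustment, Itga9 was not called for co-culture on control titanium (0.52, edgeR adjusted p = 0.0531).

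GC adjustment, without and with the replicate block, turned the sign for the following members, which were called with or without the adjustment. Members called in neither of the fits compared are left out, whether or not their sign changed. For co-culture on nanotopography they were Itga3 (0.51 and 0.51), Itga5 (0.37 and 0.37), Itgav (-0.0649 and -0.0648), Itgb5 (0.25 and 0.25), Pxn (0.18 and 0.18), Zyx (0.0536 and 0.0587), Actn1 (0.35 and 0.35), Src (0.21 and 0.21), Bcar1 (0.0177 and 0.0202). For nanotopography in co-culture they were Itga1 (-0.0254 and -0.0227), Itga5 (0.0887 and 0.0880), Itga10 (0.0748 and 0.0732), Itgav (-0.0434 and -0.0433), Tln1 (0.0595 and 0.0612), Lims1 (-0.18 and -0.18), Src (0.0308 and 0.0294), Tns1 (0.0613 and 0.0611). For the interaction they were Itga11 (0.17 and 0.17), Itgav (-0.0648 and -0.0643), Lims1 (-0.26 and -0.26).

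Leaving out 1 library gave 10 to 14 members called for co-culture on control titanium, 22 to 25 for co-culture on nanotopography, 0 to 13 for nanotopography in isolated cells, 15 to 22 for nanotopography in co-culture and 19 to 21 for the interaction. In the GC-adjusted fit these were 13 to 16, 17 to 20, 1 to 2, 3 to 9 (3, 4, 5, 6, 7, 8 or 9) and 3 to 9 (3, 4, 5, 7, 8 or 9). Without a low-count filter, the calls of Itga10 and Itgb1 for nanotopography in co-culture were lost (edgeR adjusted p = 0.0999 and 0.0615), and Itga10 also with only the 2 groups compared (edgeR adjusted p = 0.0569).

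Depth limits Itga2, Itga4, Itga7, Itgb7, Itgb8 and Fblim1, whose groups hold few counts. The floors given for Itga4 cover counting error only, whereas the values behind the ± signs also hold the spread between libraries. Each group has 3 libraries of 1 clonal line.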
